A study of Mus musculus with 4 samples.

Results

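The 45 genes described here encode the subunits of the proteasome, its activators and its assembly factors: the alpha and beta subunits of the 20S core, the ATPase and non-ATPase subunits of the 19S particle, and the chaperones that build both. They were chosen by name, through the transcript accession of each probe, out of 20832 genes with a symbol on the array. All 45 had signal and were tested, through 57 probes, among 15759 genes tested in all. The rule used names and no measured value, although it was drawn up with earlier results of these data known.

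The proteasome is the cell's main protease for proteins tagged with ubiquitin. Its 20S core is a barrel of stacked rings, in which the outer alpha rings gate the entrance and the inner beta rings carry the proteolytic sites. The 19S particle caps the barrel, binds and removes ubiquitin, and unfolds the substrate with a ring of ATPases. Interferon can replace the constitutive catalytic subunits with immunoproteasome subunits, which in the brain are mostly associated with microglia and other immune cells.

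The samples were RNA of the cerebral cortex from 3-month-old males on the C57BL/6N background, either wild type or labelled Ndrg2-/-, with no further detail of the allele in the labels. Ndrg2 is an N-myc downstream regulated gene that astrocytes express strongly. Each of 4 dual-colour Agilent arrays carried a wild-type sample in Cy3 and a knockout sample in Cy5, numbered as replicates 1 to 4. Whether each sample held RNA of 1 mouse or of several is not in the labels, so the p-values cover only the spread between these 4 pairs, which may be technical. Values are log2 ratios of the sample labelled knockout over the sample labelled wild type, given as mean ± SD over the 4 arrays, with p-values from limma adjusted by Benjamini-Hochberg over all probes tested. The threshold for a call was an adjusted p of 0.05.

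The dyes were not exchanged on any array, so genotype and dye cannot be told apart. Median spot signals ran from 94 to 122 in the wild-type channel and from 283 to 335.5 in the knockout channel, and 70.6% to 73.4% of probes passed Agilent's criterion of lying well above background in a given channel. The Ndrg2 probe was not lower in the samples labelled knockout: its log2 ratios were 0.11, 0.37, 0.40 and 0.38 (mean 0.32 ± 0.14, adjusted p = 0.0173). The labels do not give the deleted part, and a probe outside it checks nothing, so every direction here rests on the labels. Across all genes tested 14.9% were called, 9.10% higher and 5.84% lower.

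Most proteasome genes differed little between the genotypes, and a single activator subunit stood apart. Of the 45 genes, 1 was called higher, the nuclear activator gene Psme3 (log2 ratio 0.64 ± 0.05), and 5 were called lower, namely Psma7, Psmb10, Psmd7, Psmd13 and Psme4, with means between -0.22 and -0.15. The remaining 39 missed the threshold, and 17 of the 45 had an unadjusted p under 0.05, a share near the 34.8% of all genes. Without replicate 1, 2 or 3 no gene was called lower, and without replicate 4 Psma7 and Psmd7 were, while Psme3 was called each time. Of all genes 1.33%, 0.831%, 1.53% and 3.73% were called lower without replicates 1 to 4, against 5.84% with all arrays. Mean ratios were below 0 in 34 of 45 genes, against 45.2% of all genes tested, but in 6 of 45 under median centring of the arrays without loess, where 41.2% of all genes were below 0. That centring called 61.9% of all genes, 35.7% higher and 26.2% lower, and of the proteasome genes 25 higher and 2 lower. The median log2 ratio of the 45 genes was -0.07, against 0.01 over all genes, and it was 0.15 under median centring without loess. By array that median was -0.09, -0.04, -0.09 and -0.04, against 0.01 to 0.02 for all genes, so it lay below the median of all genes on each array after loess. Ratios were below 0 on all 4 arrays in 22 genes, against 18.6% of all genes, and above 0 on all 4 arrays in 7, against 24.1%.

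These changes were small beside the 1.5-fold cut named in the series' design text. The 95% confidence interval lay within 1.5 fold in both directions for 44 of the 45 genes, as it did for 98.4% of all genes. Psme3 alone had a mean past 1.5 fold, as did 0.273% of all genes, and no proteasome gene passed on all 4 arrays, against 0.0952% of all genes. The genes were also measured tightly, with a median SD over the arrays of 0.05, against 0.09 over all genes. In bulk cortex, fewer cells of a type and less RNA per cell cannot be told apart.

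**Figure D1:**
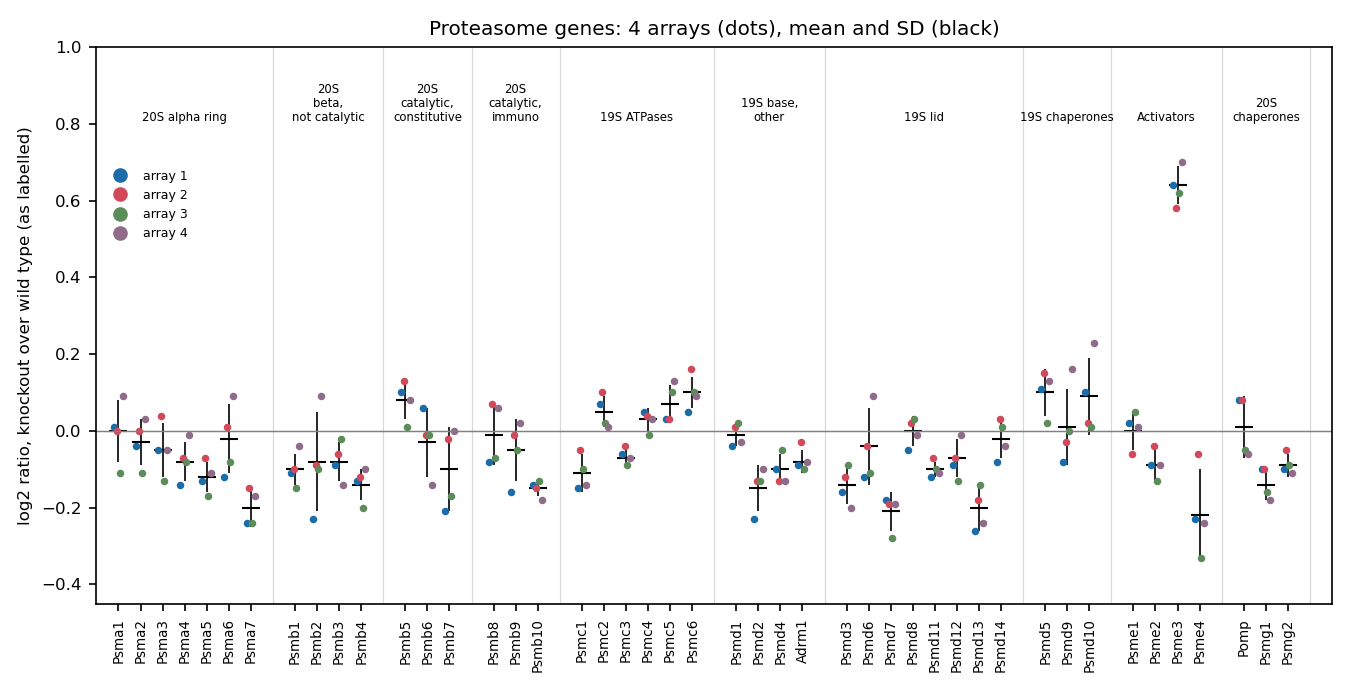
Log2 ratios (vertical axis) of the 45 proteasome genes, grouped by subcomplex along the horizontal axis, with a coloured dot for each of the 4 arrays and the mean and SD in black. Psme3 sits at 0.64 on its own, the other genes have means between -0.22 and 0.10, and the shift of most genes below 0 is that after loess normalization; under median centring without loess 6 of 45 means stayed below 0.

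The activators dock onto the ends of the core in place of, or opposite, the 19S particle, and they took the most divergent values. Psme3 encodes the gamma subunit of the 11S activator, which forms a ring of its own in the nucleus and promotes degradation without ubiquitin. Its log2 ratios were 0.64, 0.58, 0.62 and 0.70, with a 95% interval of the mean from 0.54 to 0.73 and an adjusted p of 0.000709. Its normalized log2 signal was 9.11, 8.95, 8.82 and 9.01 in the wild-type channel and 9.75, 9.53, 9.44 and 9.70 in the knockout channel. All 4 knockout signals lay above all 4 wild-type signals. The mean corresponded to 1.55 fold, 3 of 4 arrays passed 1.5 fold (log2 0.58), and only 17 of 15759 genes had a higher mean ratio. The call held under every alternative run, leaving out each array included, where the ratio stayed between 0.62 and 0.65 (adjusted p 0.00475 to 0.0116).

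Psme3 had 1 probe, so no second probe checked it. Its neighbours in gene order on chromosome 11 did not share its size. On one side Becn1, an autophagy gene, was at -0.03 ± 0.07 (adjusted p = 0.712), and on the other Aoc2, an amine oxidase gene, was called higher at 0.19 ± 0.07 (adjusted p = 0.0330). The signal of Psme3 was of middle brightness, with 55.9% of genes tested brighter.

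Psme4 encodes a large single-chain nuclear activator linked to histone degradation, and it was called lower at -0.22 ± 0.12 (adjusted p = 0.0365). Its ratios were -0.23, -0.06, -0.33 and -0.24, all below 0 but spread widely, with array 2 close to 0. The dimmer of its probes gave 0.01, -0.02, -0.01 and -0.17, a mean of -0.05 ± 0.08 (adjusted p = 0.518). The decrease was therefore seen by 1 of its 2 probes, and the mean over both was -0.13 (adjusted p = 0.0823). The call was lost without each array in turn (adjusted p 0.0531 to 0.129).

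Psme1 and Psme2 encode the alpha and beta subunits of the 11S activator, which interferon induces together with the immunoproteasome. Psme1 had ratios of 0.02, -0.06, 0.05 and 0.01, a mean of 0 ± 0.05 with an interval from -0.09 to 0.10 (adjusted p = 0.955), and under median centring without loess it was called higher (0.17, adjusted p = 0.0139). Psme2 had ratios of -0.09, -0.04, -0.13 and -0.09, a mean of -0.09 ± 0.04 (adjusted p = 0.158), which became 0.11 under median centring without loess, and its dimmer probe gave -0.02 ± 0.02 (adjusted p = 0.778). Neither passed the test after loess; the differences between activators were not tested.

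The 250 bases upstream of the annotated starts of Psme3 and Psme4 are shown because these activator genes were called in opposite directions. Sequences are from RefSeq on GRCm38.p6, on the strand of the gene, and end at the base before the start. Psme3 lies at chr11:101315963-101316212 (plus strand) and Psme4 at chr11:30771525-30771774 (plus strand). Capitals mark a match of the CCAAT box, here on the opposite strand, 14 bases before the start of Psme3.
Psme3: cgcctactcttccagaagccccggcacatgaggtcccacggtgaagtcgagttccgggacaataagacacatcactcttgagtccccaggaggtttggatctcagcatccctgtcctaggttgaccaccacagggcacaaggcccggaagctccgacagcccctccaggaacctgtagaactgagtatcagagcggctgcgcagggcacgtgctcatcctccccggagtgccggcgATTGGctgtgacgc
Psme4: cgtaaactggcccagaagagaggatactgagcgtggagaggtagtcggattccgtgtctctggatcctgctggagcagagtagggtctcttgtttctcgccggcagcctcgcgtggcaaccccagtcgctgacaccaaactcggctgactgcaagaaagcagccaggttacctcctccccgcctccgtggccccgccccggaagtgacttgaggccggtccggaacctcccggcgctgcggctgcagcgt
None of the letters searched, given with their shares further on, occurred in the Psme4 window.

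**Figure D2:**
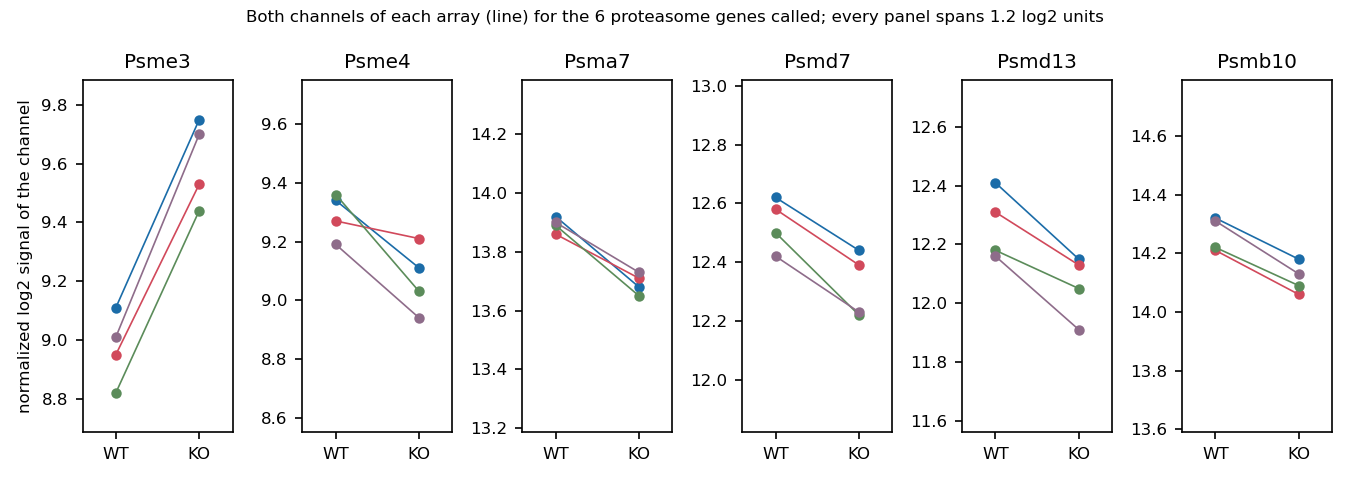
Normalized log2 signal (vertical axis) of the wild-type (WT) and knockout (KO) channels for the 6 proteasome genes called, with 1 line per array and the same 1.2-unit span in each panel. All 4 lines rise for Psme3 and fall for the other 5 genes; the channels do not overlap for Psme3, Psma7, Psmd13 and Psmb10, and under median centring without loess Psma7 and Psmb10 had ratios above 0.

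Within the 20S core, 1 gene of the alpha ring and none of the structural beta subunits was called, lower after loess. Under median centring without loess 4 and 2 of them were called higher, beside 35.7% of all genes. All 7 alpha genes had a mean below 0 before rounding, from -0.20 to 0, against 45.2% of all genes, but none did under median centring without loess. Their median was -0.05, with array medians of -0.12, 0, -0.11 and -0.01, so arrays 1 and 3 were lower than the others. Psma7, which encodes an alpha subunit, was the 1 gene of the ring called lower, at -0.20 ± 0.05 (adjusted p = 0.0214), beside 5.84% of all genes. Its ratios were -0.24, -0.15, -0.24 and -0.17. The wild-type signals of 13.92, 13.86, 13.89 and 13.90 all lay above the knockout signals of 13.68, 13.71, 13.65 and 13.73. The call was lost with the signals as processed by the scanner software (-0.18, adjusted p = 0.0635) and without replicate 1, 2 or 3 (adjusted p 0.0758, 0.0724 and 0.0896), and the sign turned under median centring without loess (0.04).

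The 4 structural beta genes, Psmb1 to Psmb4, form the inner rings together with the catalytic subunits. Their means ran from -0.14 to -0.08 with a median of -0.09, and the array medians of -0.12, -0.09, -0.12 and -0.07 were alike, while 1 of 4 stayed below 0 under median centring without loess. None was called. The closest was Psmb4, at -0.14 ± 0.04 with an adjusted p of 0.0554. For the 14 genes of the constitutive core as a whole, 1 was called lower and none higher, beside 5.84% and 9.10% of all genes. Of the 14 genes, 7 were below 0 on all 4 arrays, against 18.6% of all genes, and the median was -0.08.

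The catalytic subunits were compared by class. Constitutive cores carry Psmb6 (caspase-like activity), Psmb7 (trypsin-like activity) and Psmb5 (chymotrypsin-like activity), and immunoproteasomes carry Psmb9, Psmb10 and Psmb8 in their places. Of these 6 genes only Psmb10 was called, lower at -0.15 ± 0.02 (adjusted p = 0.0394). The ratios of Psmb10 were -0.14, -0.15, -0.13 and -0.18, the tightest of the 6. Its wild-type signals of 14.32, 14.21, 14.22 and 14.31 all exceeded the knockout signals of 14.18, 14.06, 14.09 and 14.13. The call did not hold with processed signals (-0.11, adjusted p = 0.116), with an offset of 16 (-0.15, adjusted p = 0.0581), with no filter on dim probes (-0.15, adjusted p = 0.0546) or without any single array (adjusted p 0.082 to 0.13). Under median centring without loess Psmb10 was called higher instead (0.12, adjusted p = 0.0425).

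The other immunoproteasome genes did not pass. Psmb8 had ratios of -0.08, 0.07, -0.07 and 0.06, a mean of -0.01 ± 0.08 (adjusted p = 0.942), with 2 arrays on either side of 0. Psmb9 had ratios of -0.16, -0.01, -0.05 and 0.02, a mean of -0.05 ± 0.08 (adjusted p = 0.472), and was called lower only under median centring without loess (-0.13, adjusted p = 0.0406). Psmb10 thus differed in call from the other inducible subunits, but no test of that difference was made.

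Among the constitutive subunits, Psmb5 gave opposite answers from its probes. The brighter probe had ratios of 0.10, 0.13, 0.01 and 0.08, a mean of 0.08 ± 0.05 (adjusted p = 0.211). The dimmer probe had ratios of -0.17, -0.10, -0.18 and -0.14, a mean of -0.15 ± 0.04 (adjusted p = 0.0465), which by itself would be a call. Neither set of values crossed 0 on any array, so no direction is given for Psmb5, and the mean over both probes was -0.03 (adjusted p = 0.581). The brighter probe was called higher under median centring without loess (0.41, adjusted p = 0.000147). Psmb6 had ratios of 0.06, -0.01, -0.01 and -0.14, a mean of -0.03 ± 0.09 (adjusted p = 0.731). Psmb7 had ratios of -0.21, -0.02, -0.17 and 0, a mean of -0.10 ± 0.11 (adjusted p = 0.204). Both spread over the arrays by as much as their means or more, and both had ratios above 0 under median centring without loess, with Psmb6 called (0.25, adjusted p = 0.00276) and Psmb7 not (0.09, adjusted p = 0.196).

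Taken per array, the mean ratio of the immunoproteasome subunits was -0.13, -0.03, -0.08 and -0.03 and that of the constitutive subunits -0.02, 0.03, -0.06 and -0.02. The difference was -0.11, -0.07, -0.03 and -0.01, a mean of -0.05 ± 0.04 (SD, n = 4), below 0 on all 4 arrays by amounts down to 0.01. It rested on the brighter Psmb5 probe, since it was 0 with Psmb5 left out. It widened to -0.27 under median centring without loess, but the classes differed in brightness. Of genes tested, 67.3% and 69.5% were brighter than Psmb8 and Psmb9, and 4.92% than Psmb10. For Psmb5, Psmb6 and Psmb7 the shares were 1.74%, 4.29% and 14.5%. With that centring the median ratio of all genes was 0.27 in the brightest of 10 bins, 0 in bin 7 and -0.56 in the dimmest. The part of brightness in the wider difference was not tested. Since the members were chosen with results known, no p is given for this difference.

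**Figure D3:**
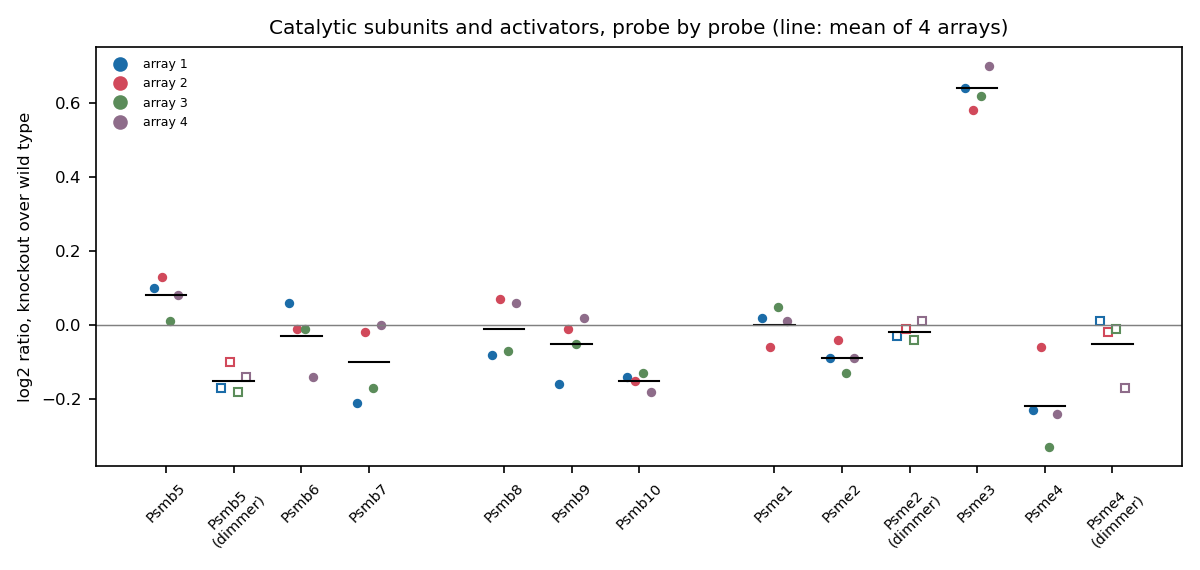
Log2 ratios (vertical axis) on 4 arrays for every probe of the catalytic subunits and activators, with filled dots for the probe used, open squares for a dimmer probe and a line at the mean. The probes of Psmb5 lie on opposite sides of 0 (means 0.08 and -0.15), the dimmer Psme4 probe has a mean of -0.05, and Psme3 lies above all others.

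Upstream sequences of core genes are shown for Psma7, the called alpha gene, and for Psmb5 and Psmb6, which hold the core letters of the antioxidant response element, TGACNNNGC, through which the factor encoded by Nfe2l1 drives proteasome genes. They lie at chr2:180042465-180042714 (minus strand), chr14:54617996-54618245 (minus strand) and chr11:70525107-70525356 (plus strand). Capitals mark the CCAAT box of Psma7, 196 bases before the start, and the element core of Psmb5 and Psmb6, 47 and 9 bases before the start.
Psma7: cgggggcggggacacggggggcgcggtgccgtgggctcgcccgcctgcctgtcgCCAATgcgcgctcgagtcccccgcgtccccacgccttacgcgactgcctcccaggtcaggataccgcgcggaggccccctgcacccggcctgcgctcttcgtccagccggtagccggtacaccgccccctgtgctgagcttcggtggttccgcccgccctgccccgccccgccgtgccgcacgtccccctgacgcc
Psmb5: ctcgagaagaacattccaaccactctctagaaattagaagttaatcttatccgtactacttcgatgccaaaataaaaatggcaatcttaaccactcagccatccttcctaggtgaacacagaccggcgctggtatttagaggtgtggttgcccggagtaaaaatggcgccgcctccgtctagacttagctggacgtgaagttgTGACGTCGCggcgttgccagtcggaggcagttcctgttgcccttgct
Psmb6: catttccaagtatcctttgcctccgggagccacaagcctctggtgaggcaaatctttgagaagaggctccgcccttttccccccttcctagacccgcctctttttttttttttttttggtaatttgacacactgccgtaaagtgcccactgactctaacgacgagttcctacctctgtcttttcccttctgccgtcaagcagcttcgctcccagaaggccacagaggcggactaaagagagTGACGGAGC
Psma7 was shown for its call and Psmb5 and Psmb6, not called, for a match, so nothing is read about matches and calls.

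The 19S particle was split between its ATPase ring and the rest. The 6 ATPase genes, Psmc1 to Psmc6, which unfold substrates and open the core, had means from -0.11 to 0.10 with a median of 0.04 and none called. Psmc1 and Psmc3 were below 0 on all 4 arrays and 3 others above 0 on all 4. Under median centring without loess all 6 were called higher, beside 35.7% of all genes. The largest of them was Psmc6, with ratios of 0.05, 0.16, 0.10 and 0.09 and a mean of 0.10 ± 0.04 (adjusted p = 0.124). Both probes of Psmc1, of Psmc2 and of Psmc3 had the same sign.

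The non-ATPase genes of the base, Psmd1 and Psmd2 (scaffolds for shuttle factors) and Psmd4 and Adrm1 (ubiquitin receptors), all had means below 0 after loess, from -0.15 to -0.01 with a median of -0.09, and none did under median centring without loess. None was called, and Psmd2 came closest at -0.15 ± 0.06 (adjusted p = 0.0551). The channels of Psmd4 did not overlap between genotypes, with a mean of -0.10 ± 0.04 (adjusted p = 0.117). Over all proteasome genes the channels did not overlap in 8 of 45, against 15.3% of all genes.

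Of the 8 genes of the lid, which removes ubiquitin chains, 2 were called lower, beside 5.84% of all genes. All 8 lid genes had a mean below 0 before rounding, with a median of -0.09, and 2 of 8 did under median centring without loess. Psmd7, which encodes the partner of the deubiquitinase Psmd14, had ratios of -0.18, -0.19, -0.28 and -0.19, a mean of -0.21 ± 0.05 (adjusted p = 0.0194). Psmd13, a scaffold subunit of the lid, had ratios of -0.26, -0.18, -0.14 and -0.24, a mean of -0.20 ± 0.06 (adjusted p = 0.0216). Each was low on all 4 arrays, and both were at -0.03 and not called under median centring without loess. Psmd13 lost the call without each array in turn (adjusted p 0.0534 to 0.0818). Psmd7 lost it without replicate 1, 2 or 3 (adjusted p 0.0586, 0.0781 and 0.0829) and with processed signals (-0.19, adjusted p = 0.0560).

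Psmd14, the deubiquitinase itself, was at -0.02 ± 0.05 (adjusted p = 0.735) and Psmd8 at 0 ± 0.04 (adjusted p = 0.974). Differences between lid genes were not tested. Psmd3 missed the threshold at -0.14 ± 0.05 (adjusted p = 0.0560). Over the 18 subunit genes of the 19S particle, 2 were called lower and none higher, beside 5.84% and 9.10% of all genes. After loess 14 of the 18 had a mean below 0, against 45.2% of all genes, and the median was -0.07.

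The upstream window of Psmc6, at chr14:45329574-45329823 (plus strand), is shown because it holds the element core. The match lies on the opposite strand, 227 bases before the start. Psmc6, not called, had ratios above 0 on all 4 arrays, as did 24.1% of all genes. Psmb5 by its brighter probe did so too, while Adrm1 and Psmd12, which also hold the core, were below 0 on all 4. Nothing is read about matches and directions.
Psmc6: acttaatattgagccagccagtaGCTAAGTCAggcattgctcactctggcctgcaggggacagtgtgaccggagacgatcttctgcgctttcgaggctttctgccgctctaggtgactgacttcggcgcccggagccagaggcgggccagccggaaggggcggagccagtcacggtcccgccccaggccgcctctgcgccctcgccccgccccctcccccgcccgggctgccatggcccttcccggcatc

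The assembly factors were divided between the chaperones of the base and those of the core. Psmd5, Psmd9 and Psmd10, which hold the ATPases during assembly of the base and then leave, had means of 0.10 ± 0.06, 0.01 ± 0.10 and 0.09 ± 0.10, with none called (adjusted p = 0.134, 0.907 and 0.249). After loess they were the one group of the proteasome with no mean below 0 by the brightest probes (median 0.09). The dimmer probe of Psmd9 had a mean of -0.03 ± 0.22 (adjusted p = 0.831). Under median centring without loess the median of the group was 0.16, and several other groups had no mean below 0 either. The array medians of these base chaperones were 0.10, 0.02, 0.01 and 0.16, higher on arrays 1 and 4, although Psmd5 was highest on array 2 (0.15). Of the core chaperones, Psmg1 was at -0.14 ± 0.04 (adjusted p = 0.0576) and Psmg2 at -0.09 ± 0.03 (adjusted p = 0.163), both below 0 on all 4 arrays, while Pomp, the maturation factor, had a mean of 0.01 ± 0.08 (adjusted p = 0.886). Under median centring without loess no core chaperone had a mean below 0.

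A group of 5 genes lies on chromosome 14 within 40 Mb of Ndrg2, the targeted gene. Psmc6, Psmb5, Psme1 and Psme2 lie within 10 Mb and Psmd6 farther out. Psmd6, a lid gene, had ratios of -0.12, -0.04, -0.11 and 0.09, a mean of -0.04 ± 0.10 (adjusted p = 0.561), which was 0.14 under median centring without loess. None of the 5 was called after loess, while Psmb5, Psmc6 (0.27, adjusted p = 0.000995) and Psme1 were called higher under median centring without loess. That centring called 35.7% of all genes higher. Without them the counts were again 1 higher and 5 lower, of 40, and the median was again -0.07.

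Where 2 probes measured the same gene, they mostly gave one sign. Of 12 genes with 2 probes, 8 had the same sign for both and 4 did not, namely Pomp, Psma4, Psmb5 and Psmd9. The probes of a gene differed by a median of 0.05 and by at most 0.23, the latter for Psmb5, which is more than any of the lower calls. The other 33 genes, Psme3, Psma7, Psmb10, Psmd7 and Psmd13 among them, had 1 probe and no such check.

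The proteasome genes sat mostly at the bright end of the arrays. Of the 45, 30 were among the 3152 brightest genes tested, a ranking of spot signals and not of RNA amounts. Over all of those 3152 genes the median log2 ratio was 0, and 50% had a mean below 0. The 30 proteasome genes there had a median of -0.08, with 83.3% below 0, 13.3% called lower and none higher, against 9.17% and 11.9% of the 3152. Under median centring without loess the medians there were 0.15 for the proteasome genes and 0.23 for all genes. With that centring, the bright proteasome genes had a median above 0 that was still below the median of the bright genes as a whole.

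**Figure D4:**
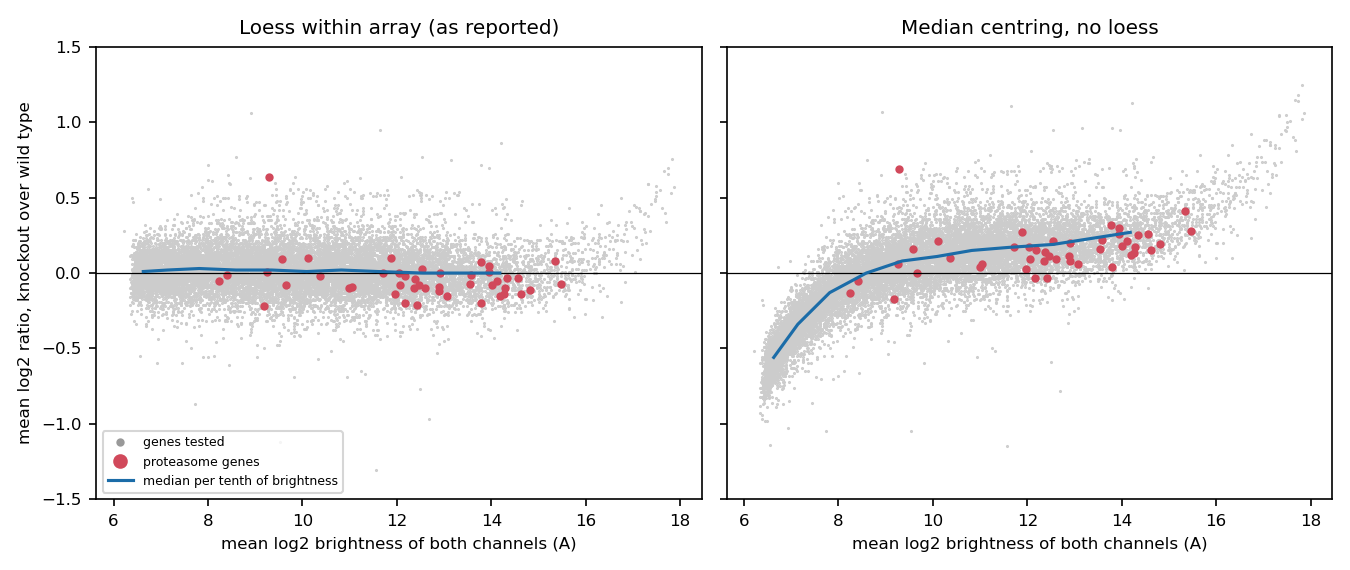
Mean log2 ratio (vertical axis) against mean log2 brightness of both channels (horizontal axis) for all genes tested (grey), the proteasome genes (red) and the median in each of 10 bins of brightness (blue), after loess on the left and after median centring without loess on the right; 2 genes in each panel lie beyond 1.5 log2 units and are not drawn. On the left the blue line is flat near 0 and the proteasome genes have a median of -0.07; on the right the line climbs with brightness and the same genes have a median of 0.15.

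Promoter windows of 250 bases were found for 38 of the 45 genes, and 3 motifs were searched on both strands. The antioxidant response element core TGACNNNGC was present in 6 of 38 (Adrm1, Psmb5, Psmb6, Psmc6, Psmd9 and Psmd12), against 10.2% of 32851 promoters, and none of the 6 was called. The CCAAT box, CCAAT, was present in 14 of 38, against 33.8% of promoters, Psme3 and Psma7 among them. The core of the interferon-stimulated response element was present in 3 of 38 (Psmb3, Psmd4 and Psmd9), against 2.98%. Of the called genes with a window, Psme4, Psmd13 and Psmb10 held none of these letters.

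Genes that work next to the proteasome were examined with the same fit, from lists chosen by function. Of 12 further proteasome factors tested, 1 was called lower and none higher, beside 5.84% and 9.10% of all genes. Their median was -0.08 and became 0.07 under median centring without loess. The called gene was Sem1, which encodes a small acidic lid subunit, with ratios of -0.17, -0.18, -0.31 and -0.24 and a mean of -0.23 ± 0.06 (adjusted p = 0.0182). Sem1 lost the call with processed signals (-0.20, adjusted p = 0.0505) and without replicate 2 or 3 (adjusted p 0.0682 and 0.0754), and it turned to 0.06 under median centring without loess. Psmf1, an inhibitor of the core, was just outside the threshold at -0.20 ± 0.13 (adjusted p = 0.0504).

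The transcription factors and processing enzymes that set proteasome gene expression were not called after loess. Of 10 tested, 3 had an unadjusted p under 0.05, against 34.8% of all genes, and the median was 0.04. Median centring without loess called 3 higher and 2 lower, beside 35.7% and 26.2% of all genes. Nfe2l1, the main activator of proteasome genes when the proteasome is limiting, had ratios of -0.14, -0.09, -0.13 and -0.18, a mean of -0.13 ± 0.04 (adjusted p = 0.0574). Ngly1, the glycanase that activates its product, was at -0.12 ± 0.04 (adjusted p = 0.0870), and at -0.38 under median centring without loess (adjusted p = 0.00027). It lies on chromosome 14 within 40 Mb of Ndrg2. With processed signals both passed, at -0.19 (adjusted p = 0.0464) and -0.26 (adjusted p = 0.0406).

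A further list held 16 ubiquitin genes, activating enzymes, shuttle factors and the p97 unfoldase with its cofactors. Of them, 11 had a mean ratio above 0 and 5 below 0, where 45.2% of all genes were below 0. With processed signals 6 of 16 were below 0, against 48.2% of all genes. Of these 16 genes, 2 were called higher, beside 9.10% of all genes, and none lower, with a median of 0.09 (0.01 with processed signals and 0.23 under median centring without loess). Uba6, which encodes an E1 enzyme for ubiquitin, was at 0.21 ± 0.10 (adjusted p = 0.0328). Its call was lost with processed signals (0.22, adjusted p = 0.0924) and without replicate 1, 2 or 4 (adjusted p 0.0781 to 0.126). With processed signals none of the 16 genes was called.

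The pathways that the immunoproteasome serves or that induce it held no called gene after loess. Under median centring without loess, which called 61.9% of all genes, both lists held called genes. Of 13 genes of MHC class I antigen processing, none was called by limma and 1 had an unadjusted p under 0.05, with a median of -0.01. Tap2, a peptide transporter, was at -0.17 ± 0.12 (adjusted p = 0.0710) and H2-D1, a class I heavy chain, at 0.11 ± 0.14 (adjusted p = 0.216). Of 15 interferon response genes, limma called none, and the unadjusted p was under 0.05 for 1. Their array medians of 0.09, 0.01, -0.22 and 0.07 differed in sign, with array 3 low. Gbp2, an interferon-induced GTPase gene, was at 0.23 ± 0.20 (adjusted p = 0.0745), and passed without replicate 3 (0.32, adjusted p = 0.0299). Ifit1, which encodes an antiviral RNA-binding protein, was at -0.16 ± 0.29 (adjusted p = 0.309). With processed signals no gene of either list was called. Median centring without loess called 6 higher and 2 lower of the 13 antigen processing genes, H2-D1 among them (0.25, adjusted p = 0.00505). Of the 15 interferon genes it called 2 higher and 4 lower, Ifit1 among them (-0.48, adjusted p = 0.00279). Over all genes it called 35.7% higher and 26.2% lower.

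**Figure D5:**
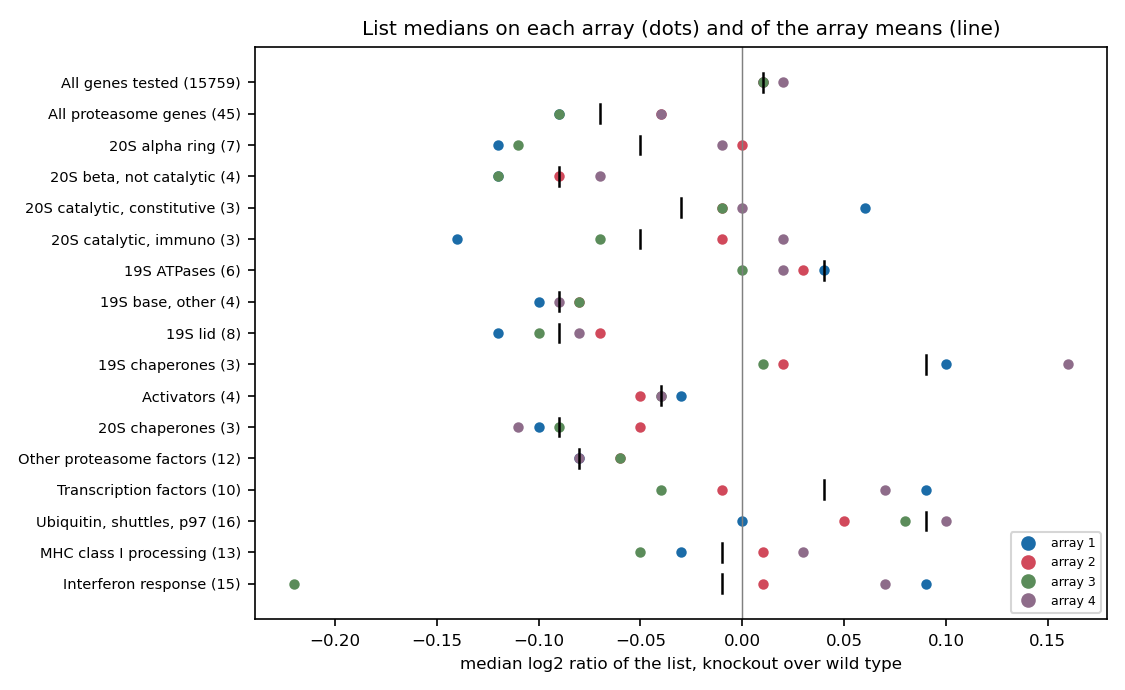
Median log2 ratio (horizontal axis) of each proteasome subcomplex and neighbouring pathway, with the number of genes tested in brackets, as a coloured dot per array and a black line for the median of the means over the arrays. The 45 proteasome genes together lie at -0.07 against 0.01 for all genes after loess (0.15 against 0.06 under median centring without loess). The ATPases, the 19S chaperones, the transcription factors and the ubiquitin and shuttle genes lie above 0.

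Among markers of cell types in the same samples, those of the meninges were called most often, beside 9.10% of all genes called higher and 5.84% lower. Of 8 markers of the cortex, all above background, 2 were called higher and 2 lower, with a median log2 ratio of 0.16 and summed linear signals of 28400 to 32100 in the wild-type and 31800 to 35800 in the knockout samples. Of 11 neuronal markers, all above background, 2 were called higher and none lower (median 0.04). Of 10 markers of the meninges, 9 were called higher and none lower, with a median of 0.46 and sums of 8530 to 15700 in the wild-type and 11800 to 19700 in the knockout samples. Of 12 microglial markers, in cells that express immunoproteasome genes, 3 were called higher, with a median of 0.05 and sums of 101000 to 121000 against 118000 to 138000. The brightest marker, Itgam (mean log2 wild-type signal 15.83), weighs most in those sums and was among the 3, at 0.24 ± 0.05. Of the 12 markers, 5 had a mean below 0. Of 10 astrocyte, 8 oligodendrocyte and 8 endothelial markers 1 each was called higher and none lower, with medians of 0.17, 0.03 and 0. The astrocyte sums were 187000 to 198000 in the wild-type and 213000 to 224000 in the knockout samples, without overlap. The called astrocyte marker, Aldoc (0.24 ± 0.02), was the brightest (mean log2 wild-type signal 16.94) and weighs most in them. Of the 10 astrocyte markers, 8 had a mean above 0 and 2 below. None of 6 striatal markers (sums of 11400 to 12600 against 11200 to 12200) and none of 5 blood markers tested was called. With processed signals the higher calls were 5 of 10 for the meninges, 1 of 8 for the cortex and 1 of 8 each for oligodendrocytes and endothelium. There were none for neurons, microglia and astrocytes, beside 4.94% of all genes called higher. The lower calls were then 1 of 11 for neurons and 1 of 8 for the cortex, beside 3.49% of all genes. Median centring without loess called 35.7% of all genes higher and 26.2% lower. Its higher calls were 10 of 10 for the meninges, 10 of 11 for neurons, 9 of 10 for astrocytes and 7 of 12 for microglia. They were 5 of 8 each for the cortex and oligodendrocytes, 2 of 6 for the striatum and 1 of 8 for endothelium. Its lower calls were 2 each for striatum and blood and 1 each for cortex, oligodendrocytes and endothelium. No marker tested was at 0 after loess. The part of these markers in the proteasome values was not tested.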

How the data were processed

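The members and lists were chosen with earlier results of these data known. Per the labels' protocols, cortical RNA was amplified and dyed with Cy3 (wild type) or Cy5 (knockout). All 4 arrays were on 1 slide in 1 scan, so no batch could be compared. The authors deposited Agilent Feature Extraction output (10.7.3.1 per the submitters' processing notes but version 11.0.1.1 per the file headers). A spot's raw intensity is its median pixel signal, and log10 ratios of processed red over green signal are given, both per the file headers. The authors also deposited a table of log2 values, which equalled the log2 ratio of processed signals for 100% of probes (within 1e-4) on each array. Its scale and direction were read from that match, and its column medians were 0.04, 0.03, -0.04 and -0.04.

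From the median signal and local background (the mean signal column was not used here), limma 3.58.1 in R 4.3.3 computed log2 ratios with normexp (offset 50) and loess. The 1377 control spots had weight 0, 802 outlier spots over the 4 arrays were left out, and none was saturated. Replicate spots were averaged (399 probes). Of 39429 probes, 27664 were kept where either channel was well above background on every one of the 4 arrays. Accessions were matched to RefSeq genes of GRCm38.p6, which named 27427 probes. The arrays' annotation uses another assembly, so positions served only for gene order and distance classes. A gene was represented by its brightest kept probe. An intercept-only fit with lmFit and eBayes (residual df 3, prior df 4.47) gave p-values that were adjusted over the kept probes by Benjamini-Hochberg. Samples with the same replicate number shared an array, so each ratio is paired by construction. No set test was made. The pipeline was tested on simulated arrays.

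Named in full were the catalytic subunits, the activators, the members within 40 Mb of Ndrg2, and the other called members. Of each pathway list, up to 4 called genes were named, or the 2 largest where none was called; 1 gene that this rule names is not reported here. Psmb4, Psmd2, Psmd3, Psmd4, Psmd8, Psmd14, Psmf1 and the assembly factors fall outside that rule and were chosen after their values were seen. Alternatives were the processed signals, the deposited table, median centring without loess, other filters, another offset (16), the mean over probes, and leaving out each array or the members near Ndrg2. The number of arrays limits the precision.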

Additional observations from a re-analysis of the deposited data

Results flagged for a closer look

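Among 27 groups of 4 arrays checked (each gene named in full, each subcomplex median, the median of all proteasome genes and the catalytic difference), 2 held an array far from the others by Dixon's ratio at the 95% level. Chance gives about 1 in 20 such groups. The log2 ratio of Psmd7 on array 3 was -0.28, with the other arrays at -0.19 to -0.18 (ratio 0.882). The median of the constitutive catalytic subunits on array 1 was 0.06, with the others at -0.01 to 0 (ratio 0.837).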

How the results depend on the processing

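The call of Psme3 held under all alternatives run. The lower calls depended on the processing, and most or all were lost when an array was left out. Without single arrays the ratios stayed below 0 for Psma7 (-0.22 to -0.19), Psmb10 (-0.16 to -0.14), Psmd7 (-0.22 to -0.18), Psmd13 (-0.23 to -0.19) and Psme4 (-0.27 to -0.18). The share of all genes called lower then fell from 5.84% to between 0.831% and 3.73%. The count of proteasome genes called lower was 2 with the processed signals, 2 with the deposited table (in both cases Psmd13 and Psme4) and 2 under median centring without loess (Psme4 and Psmb9, 1 of them shared with the 5 reported). It ran from 0 to 2 without single arrays: 0 without replicate 1, 2 or 3, and 2 without replicate 4 (Psma7 and Psmd7). Median centring without loess called 25 genes higher, left 6 means below 0, moved the median of the 45 genes to 0.15 and that of all genes to 0.06, and moved the difference of the catalytic classes to -0.27; that difference was 0 with the members within 40 Mb of Ndrg2 left out. Without single arrays the count called higher was 1 to 1, the means below 0 were 33 to 35, the median was -0.07 to -0.05 and the catalytic difference was -0.07 to -0.03. Signs turned under median centring without loess for Psmb6 (0.25), Psmb7 (0.09), Psmb10 (0.12), Psme2 (0.11), Psmd6 (0.14), Psma7 (0.04) and Sem1 (0.06), with the mean over probes for Psmb5 (-0.03), and for Psme1, which was 0 with the processed signals, the deposited table and the offset of 16. Without single arrays they turned for Psmb6 (-0.06 to 0.01), Psmb8 (-0.03 to 0.02) and Psme1 (-0.01 to 0.03). Over all genes, 1434 higher and 920 lower calls became 779 and 550 with the processed signals or the deposited table, 5630 and 4126 under median centring without loess, 1033 and 688 with the offset of 16, and 431 and 209, 321 and 131, 563 and 241, and 956 and 588 without replicates 1 to 4. The fit is paired through the ratio within each array, so no further replicate block was added. The causes of these changes were not tested.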
